A study of Mus musculus with 7 samples.

Results

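The genes described here are 41 that build ribosomes or lie in the nucleolus, out of 19938 genes measured in mouse primary hepatocytes. The set was drawn up around *Nop16*, which was chosen by its fall on these same arrays, and the other 40 were selected by gene symbol for their role in ribosome production. The question was whether the fall of *Nop16* was shared by other nucleolar genes. Each gene is represented by its brightest probe set, and all 41 had a mean log2 signal of at least 6, as did 8638 of all genes.

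Hepatocytes, the cells that make up most of the liver, were taken from male C57BL/6J mice, purified on a Percoll gradient and transfected in culture with 1 µg of miRNA. The 4 miR-709 arrays (replicates A to D) came from cells given a miR-709 mimic, and the 3 Cel-239b arrays (replicates B to D) from cells given a control miRNA of the worm. RNA was extracted after 24 h and hybridised to Affymetrix mouse gene arrays, 1 array per replicate. Whether replicates represent different mice or isolations is not in the labels, and p-values here reflect no more than the variation among these 7 arrays, which may be technical. The values are log2 signals after the RMA procedure, which corrects background and brings all arrays to 1 distribution. A difference of 1 on this scale is a 2-fold change. In RNA of whole cultures, fewer cells of a type and less RNA per cell cannot be told apart.

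Ribosomes are assembled in the nucleolus. RNA polymerase I transcribes the long ribosomal RNA precursor there, small nucleolar ribonucleoproteins (snoRNPs) modify it, and processing factors fold and cut it into the RNAs of the small and large subunits. In hepatocytes this machinery sustains the synthesis of secreted plasma proteins and grows in activity when the liver regenerates. The transcription factor MYC is a known activator of many of these genes.

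*Polr1b* was clearly lower with miR-709, beside *Nop16*, which was chosen for its fall. The other 39 genes were not called in either direction. Of the 40 genes beside *Nop16*, 1 passed the test as lower (limma, Benjamini-Hochberg over all genes, adjusted p under 0.05), against 1.47% of all genes. None (0 of 40) passed as higher, against 1.81% of all genes. Among the 8638 genes whose mean log2 signal reached 6, as it did for all of these, the shares were 3.0% lower and 3.76% higher. Without adjustment, 4 of the 40 (*Polr1b*, *Nop10*, *Npm1* and *Ubtf*) had a limma p under 0.05, against 15% of all genes and 26.0% of the bright ones. The methods' t-test with adjustment called 1 of the 40, against 1.13% and 2.43%. The median log2 fold change of the 40 was 0.03, with 16 values below 0 and 24 above, and that of all genes was 0.01.

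**Figure D1:**
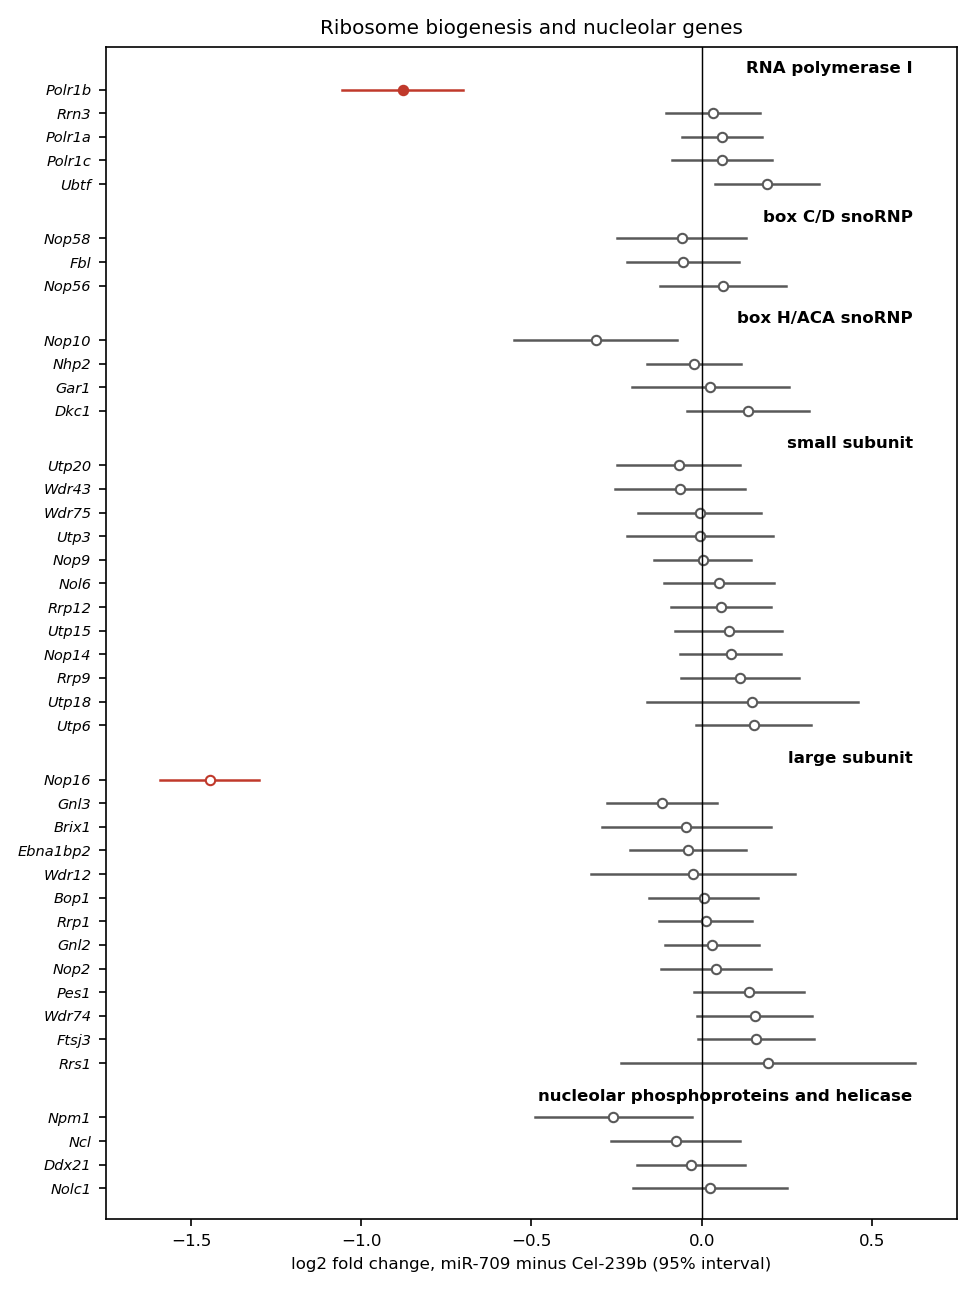
Log2 fold change of each gene (miR-709 minus Cel-239b, x axis) with its 95% interval, grouped by role (y axis). Red filled points passed the test, the red open point is *Nop16*, which was given no test, and grey open points did not pass; only *Nop16* at -1.45 and *Polr1b* at -0.88 lie far from 0.

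*Nop16*, a nucleolar protein needed for maturation of the large subunit, is on the minus strand at chr13:54584191-54590097 (GRCm38.p6). Its log2 signal was 9.38, 9.46 and 9.51 on Cel-239b arrays B, C and D. On miR-709 arrays A to D it was 8.04, 8.05, 7.89 and 8.04. The treatments did not overlap, and every miR-709 array lay more than 1 unit below every control array. The mean was 9.45 ± 0.066 (SD, n = 3) with Cel-239b and 8.01 ± 0.077 (SD, n = 4) with miR-709. This gives a log2 fold change of -1.45 (95% interval -1.59 to -1.30), or a level 2.72-fold lower. In all, 12 genes had a lower log2 fold change than *Nop16*. Because the gene was chosen for this difference, no test of it is given.

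*Polr1b* encodes one of the large subunits that form the catalytic core of RNA polymerase I, and lies on the plus strand at chr2:129100970-129128060 (GRCm38.p6). Its log2 signal was 8.90, 8.95 and 9.19 on Cel-239b arrays B, C and D. On miR-709 arrays A to D it was 8.20, 8.11, 8.06 and 8.17. Again no miR-709 array reached the lowest control array. *Polr1b* fell by 0.88 on the log2 scale (SE 0.079, 95% interval -1.06 to -0.70, limma adjusted p = 4.2e-04), a 1.84-fold decrease. There were 53 genes with a lower log2 fold change. It passed the test in each of the 20 alternative analyses, with adjusted p-values from 9.8e-05 to 0.033.

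The other RNA polymerase I genes did not fall with *Polr1b*. *Polr1a*, the largest subunit, had a log2 fold change of 0.06, although its signals, 8.07 to 8.13 with Cel-239b and 8.14 to 8.19 with miR-709, did not overlap. *Polr1c*, a subunit shared with RNA polymerase III, had a log2 fold change of 0.06. *Rrn3*, the initiation factor that brings the polymerase to the ribosomal RNA gene, was the brightest of this role and had signals of 8.99, 9.02 and 9.10 with Cel-239b. Its signals with miR-709 were 8.97, 9.10, 9.09 and 9.12, so the groups overlapped almost entirely (log2 fold change 0.03). *Ubtf*, which keeps ribosomal DNA open for transcription, read 8.09, 8.08 and 8.19 with Cel-239b and 8.20, 8.32, 8.43 and 8.30 with miR-709. Its groups did not overlap, by a margin of 1 hundredth of a unit, and it missed the threshold (log2 fold change 0.19, limma adjusted p = 0.21).

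**Figure D2:**
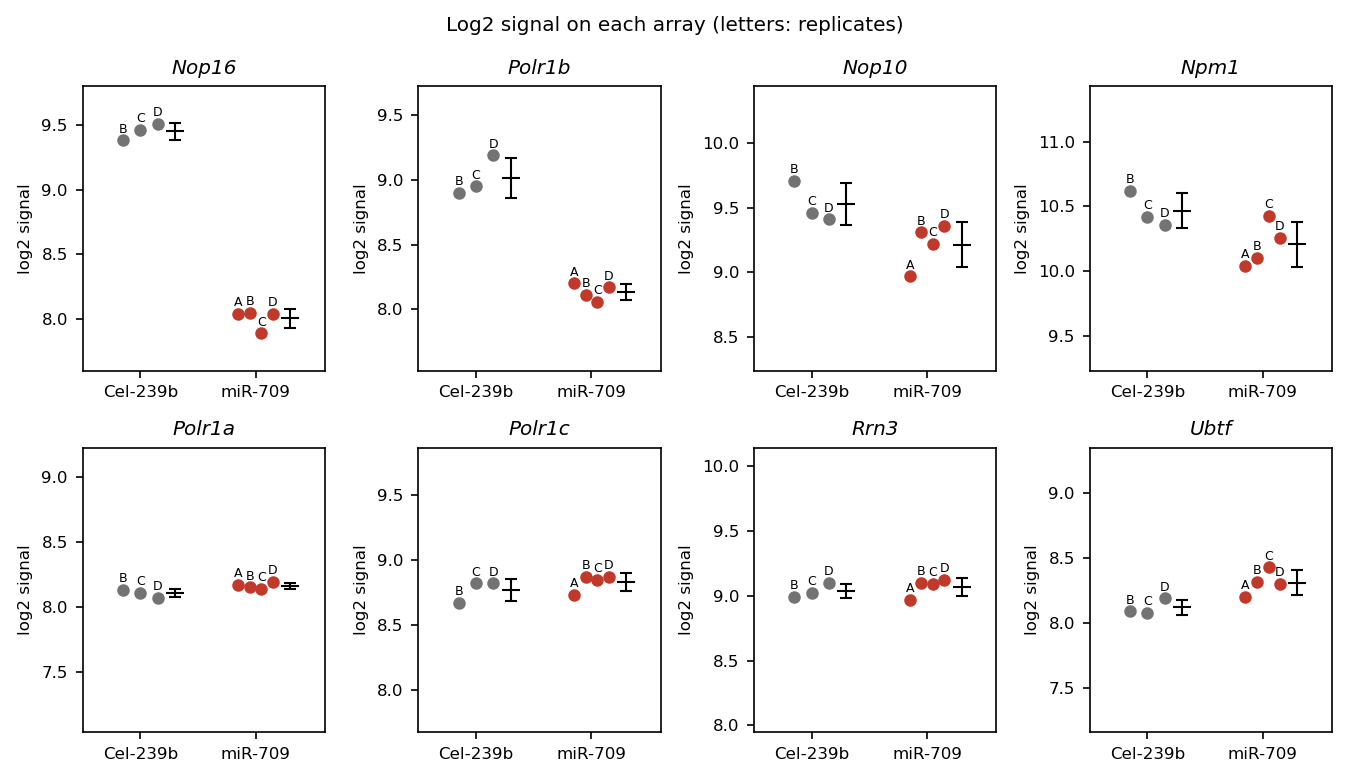
Log2 signal (y axis) of 8 genes on each Cel-239b (grey) and miR-709 (red) array, with letters for replicates and the mean and SD beside the points. Every panel spans the same range, and only *Nop16* and *Polr1b* show a wide gap between treatments; *Nop10*, *Polr1a* and *Ubtf* are separated by narrow ones.

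The box C/D snoRNPs, which methylate ribosomal RNA, showed no called gene among 3. *Nop56*, the brightest, read 10.89, 10.83 and 11.01 with Cel-239b and 10.88, 10.84, 11.06 and 11.11 with miR-709, which overlapped (log2 fold change 0.06). Its core partner *Nop58* had -0.06, and the methyltransferase *Fbl* had -0.05. *Fbl* has a further, dimmer probe set, whose log2 fold change was 0.13, so its probe sets differed in sign while neither passed. Which locus each of them matches is not given in the sources used here, and the brighter one may not lie at the gene itself.

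The box H/ACA snoRNPs, which convert uridine to pseudouridine, included *Nop10*, the uncalled gene of largest change. *Nop10* is a small core protein of these particles at chr2:112261926-112262898 (GRCm38.p6, plus strand). It read 9.71, 9.46 and 9.41 with Cel-239b and 8.97, 9.31, 9.22 and 9.36 with miR-709. The groups did not overlap, but the highest miR-709 array lay close to the lowest control. The log2 fold change was -0.31 (SE 0.107, 95% interval -0.55 to -0.07) and did not pass (limma adjusted p = 0.20, and from 0.089 to 0.44 in the alternatives). *Nhp2*, the brightest of these genes, read 9.62, 9.65 and 9.70 with Cel-239b and 9.57, 9.59, 9.64 and 9.74 with miR-709. These values interleave (log2 fold change -0.02). The pseudouridine synthase *Dkc1* had 0.14 and its partner *Gar1* had 0.03.

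The arrays of the treatments did not overlap for 2 of the 40 genes in the downward direction (*Polr1b* and *Nop10*), against 4.91% of all genes. In the upward direction there were also 2 (*Polr1a* and *Ubtf*), against 7.44% of all genes. Among all genes whose mean log2 signal reached 6 the shares were 8.21% and 13.8%, and each of the counts here is 5.0% of the 40.

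The promoters of *Nop16*, *Polr1b* and *Nop10* are shown because these are the 3 genes whose miR-709 arrays all lay below the controls. RefSeq promoter sequences (GRCm38.p6) were matched for 33 of the 41 genes. The 120 bases before the start site of the promoter entry are given on the gene's own strand, with the longest run common to all of them in capitals. That start site lies 23 bases inside the gene record of *Nop16* and 26 bases inside that of *Polr1b*, whose coordinates are given above, and at the end of that of *Nop10*.
Nop16, chr13:54590075-54590194, minus strand: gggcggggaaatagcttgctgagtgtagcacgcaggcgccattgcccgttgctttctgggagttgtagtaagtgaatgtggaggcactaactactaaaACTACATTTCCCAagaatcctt
Polr1b, chr2:129100876-129100995, plus strand: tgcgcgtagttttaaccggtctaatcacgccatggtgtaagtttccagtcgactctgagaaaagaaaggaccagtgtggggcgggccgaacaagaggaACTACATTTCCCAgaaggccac
Nop10, chr2:112261806-112261925, plus strand: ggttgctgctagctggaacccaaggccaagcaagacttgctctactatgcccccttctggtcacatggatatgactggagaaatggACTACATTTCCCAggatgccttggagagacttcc

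The shared run of 13 bases, ACTACATTTCCCA, starts at position -22 in *Nop16* and *Polr1b* and at position -34 in *Nop10*, counted from the start site of the promoter entry. In *Nop16* and *Polr1b* it therefore lies just inside the gene record and not before it. It was picked after these sequences were seen, so its presence in them is a description only. Searched on both strands from 250 bases before to 50 bases after the start, it was found in no other of the 33 genes. It was present in 0.5% of all 27025 genes with a promoter sequence and in 0.7% of those on the arrays. Of the genes on the arrays, 112 others hold it, among them *Higd2a*, whose promoter window overlaps that of *Nop16*. Of the 112, 1 was called lower and 4 higher (0.893% and 3.57%), against 1.47% and 1.81% of all genes. Their median log2 fold change was 0.04, against 0.01 for all genes.

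The small-subunit factors stayed near the controls, with no called gene among 12 and log2 fold changes from -0.07 to 0.15. *Wdr43*, a component of the complex that first binds the nascent precursor, was the brightest and read 9.98, 9.90 and 9.83 with Cel-239b. With miR-709 it read 9.71, 9.72, 9.99 and 9.94, so arrays A and B lay below the controls and C and D among or above them (log2 fold change -0.06). Of its relatives in early assembly, *Wdr75* had -0.01, *Utp15* had 0.08, *Utp18* had 0.15 and *Utp6* had 0.15. The large scaffold *Utp20* had -0.07, and *Utp3* had -0.01. The assembly factors *Nop14* and *Nop9* had 0.09 and 0.003. The snoRNP protein *Rrp9* had 0.11, the export factor *Rrp12* had 0.06, and *Nol6* had 0.05. Signals of the treatments overlapped for every one of these 12 genes.

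The large-subunit factors are the group that *Nop16* belongs to, and none of the other 12 followed it. Their log2 fold changes ran from -0.12 to 0.20, with 8 above 0. *Rrp1*, a factor for processing of the large-subunit RNA and the brightest of the 12, read 9.61, 9.57 and 9.75 with Cel-239b and 9.68, 9.64, 9.66 and 9.64 with miR-709. All its miR-709 arrays lay within the range of the controls (log2 fold change 0.01). *Rrs1*, which helps to load ribosomal proteins on the precursor, had the largest upward value and the widest spread. It read 7.60, 7.05 and 7.18 with Cel-239b and 6.96, 7.52, 7.77 and 7.64 with miR-709 (log2 fold change 0.20, 95% interval -0.24 to 0.63), so the lowest and the highest array were both miR-709.

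*Pes1*, *Bop1* and *Wdr12* form a complex that acts on the large-subunit precursor, and their log2 fold changes were 0.14, 0.01 and -0.02. A dimmer probe set of *Wdr12* had 0.22, so the gene's probe sets differed in sign, again with neither passing and with the same doubt about the locus of the brighter one. The methyltransferases *Ftsj3* and *Nop2* had 0.16 and 0.04, and *Wdr74* had 0.16. The nucleolar GTPases *Gnl3* and *Gnl2* had -0.12 and 0.03. The assembly factors *Ebna1bp2* and *Brix1* had -0.04 each.

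The abundant nucleolar phosphoproteins and the helicase *Ddx21* gave no call among 4 genes. *Npm1*, a histone and ribosome chaperone, had the lowest value, with signals of 10.62, 10.42 and 10.36 with Cel-239b and 10.04, 10.10, 10.43 and 10.26 with miR-709. Array C of miR-709 exceeded the lower controls, and the gene missed the threshold (log2 fold change -0.26, SE 0.103, limma adjusted p = 0.27). A further 3 probe sets list *Npm1* together with another gene and were not used. They were brighter, and their signals fell less. The first read 11.09 to 11.21 with Cel-239b and 10.94 to 11.08 with miR-709. The others read 11.91 to 12.07 against 11.81 to 11.99, and 11.66 to 11.86 against 11.55 to 11.75. *Ncl*, which binds the precursor RNA and was the brightest of these 4, read 10.76, 10.60 and 10.69 with Cel-239b and 10.47, 10.50, 10.73 and 10.73 with miR-709. The groups overlapped on arrays C and D (log2 fold change -0.08). *Ddx21* had -0.03 and the snoRNP chaperone *Nolc1* had 0.02.

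A missed threshold does not show that a gene stayed the same, so the intervals matter. For 22 of the 39 uncalled genes the whole 95% interval lay within 0.25 of 0 on the log2 scale, and for 37 within 0.5. The exceptions were *Rrs1*, with an upper bound of 0.63, and *Nop10*, with a lower bound of -0.55. A change as large as that of *Nop16* lay outside the interval of all 40 other genes.

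**Figure D3:**
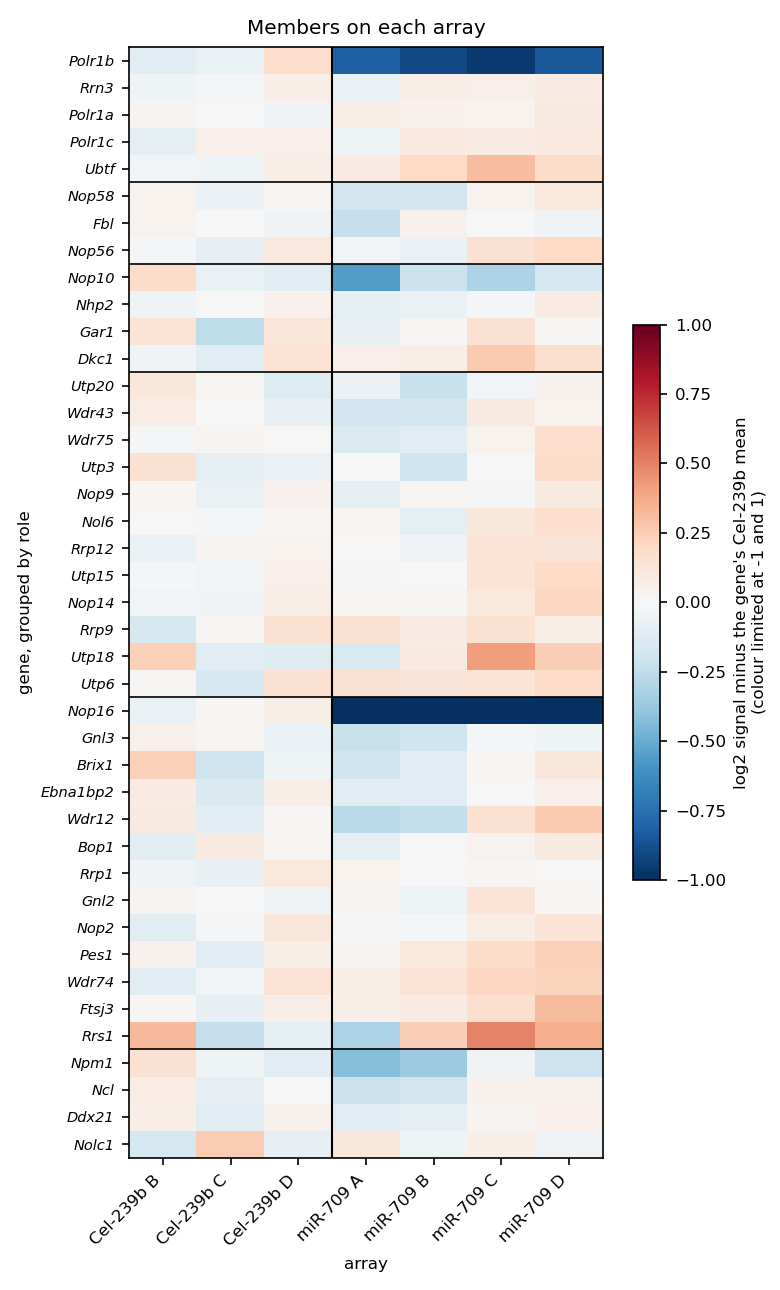
Log2 signal of each gene (rows, grouped by role with lines between roles) on each array (columns), minus the gene's Cel-239b mean, with colour limited at -1 and 1. *Nop16* and *Polr1b* are dark blue on all 4 miR-709 arrays, while most other rows are pale, with more blue on arrays A and B and more red on C and D.

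The miR-709 arrays were not alike for the other genes. The median of the 40 genes, as a difference from each gene's Cel-239b mean, was -0.06 on array A and -0.03 on B, but 0.07 on C and 0.10 on D. The control arrays B, C and D had 0.02, -0.04 and 0.04. On arrays C and D, 32 and 33 of the 40 genes lay above their Cel-239b mean, against 13 on A and 16 on B. Interferon response genes separated the same arrays, since the median difference of 18 such genes was 0.89 on C and 0.94 on D, against -0.12 on A and -0.03 on B. Their part in the values above was not tested. Without arrays C and D, the count for the 40 genes was again 1 lower and 0 higher, the median was -0.04, and *Polr1b* had a limma adjusted p of 0.033.

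Other genes of ribosome production included calls in both directions. In 4 lists (further RNA polymerase I genes, small-subunit factors, large-subunit factors, and snoRNP assembly and exosome genes), 146 of 152 genes were measured. Of these 3 passed the test as lower (2.05%) and 5 as higher (3.42%), against 1.47% and 1.81% of all genes. Among all genes whose mean log2 signal reached 6, as it did for 139 of the 146, the shares were 3.0% and 3.76%. The median log2 fold change of the 146 was 0.04. The arrays did not overlap for 9 in the downward and 18 in the upward direction (6.16% and 12.3%). The shares were 4.91% and 7.44% of all genes, and 8.21% and 13.8% of the bright ones. Each share of the 146 lay below that of the bright genes. The methods' t-test with adjustment called 0 of the 146, against 1.13% of all genes and 2.43% of the bright ones. The lower genes were *Gnl3l*, a nucleolar GTPase related to *Gnl3* (-0.76), *Dhx37*, a helicase of small-subunit assembly (-0.61), and *Rrp8*, a nucleolar methyltransferase (-0.55). Their limma adjusted p-values were 0.0024, 0.0027 and 0.0035, and with the methods' t-test 0.064, 0.052 and 0.052. The higher genes were *Pno1*, a small-subunit assembly factor (0.47), and *Polr1f*, a polymerase I subunit listed under its older symbol Twistnb (0.46). *Lsg1*, a GTPase of late large-subunit export (0.35), *Rpp40*, an RNase P subunit (0.31), and *Exosc1*, an exosome subunit (0.30), were also higher. *Rpp40* was dim, with mean log2 signals of 5.39 with Cel-239b and 5.71 with miR-709. With the methods' t-test the adjusted p-values of the 5 higher genes were 0.052 to 0.21. None of these 5 calls held when Cel-239b array C, miR-709 array C or miR-709 array D was left out. The 3 lower calls stood in each of these. Without arrays C and D together, *Gnl3l* had a limma adjusted p of 0.081.

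**Figure D4:**
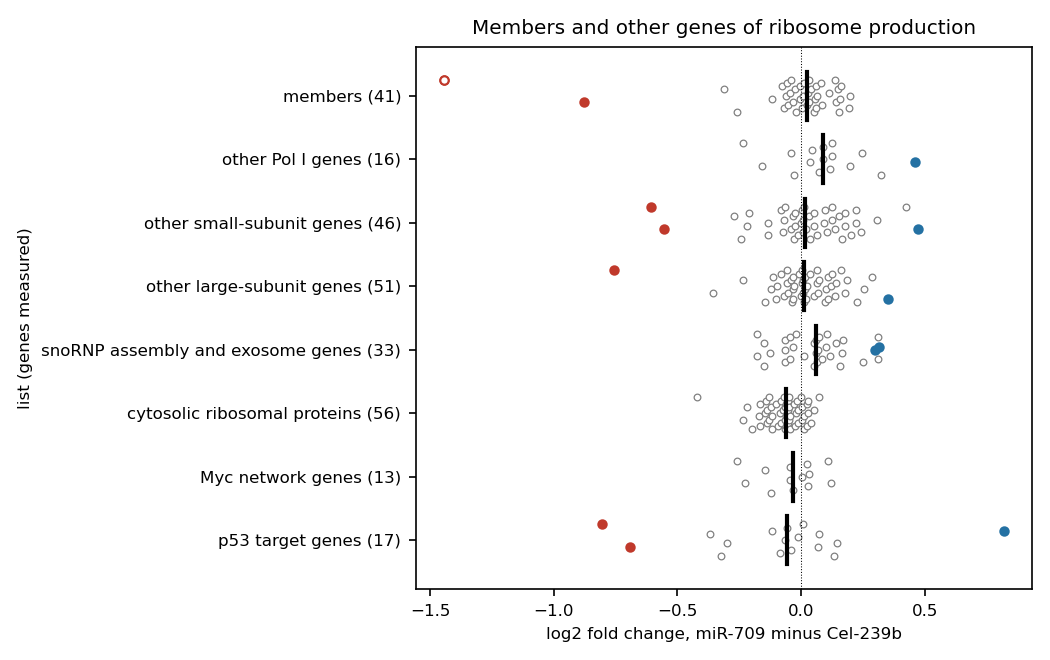
Log2 fold change (x axis) of every gene measured in 8 lists (y axis, with the number of genes). Filled red points passed as lower, filled blue points as higher, open grey points did not pass, the open red point is the untested *Nop16*, and black bars mark list medians; all medians lie between -0.06 and 0.09.

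The cytosolic ribosomal proteins, the products that these factors assemble with RNA, showed no call among the 56 measured of 82. Which locus their brightest probe sets match is not given in the sources used here, and some may not lie at the gene named. The median of the 56 was -0.06, with 44 values below 0 and 12 above, while 8992 of all 19938 genes were below 0. Of the 56, 2 had an unadjusted limma p under 0.05. Of 13 *Myc* network genes 0 passed, with 2 under an unadjusted limma p of 0.05. Over all genes, 1.47% passed as lower, 1.81% passed as higher and 15% had an unadjusted limma p under 0.05. Among all genes whose mean log2 signal reached 6 these shares were 3.0%, 3.76% and 26.0%. *Myc* itself read 9.98, 10.13 and 9.95 with Cel-239b and 9.90, 9.91, 10.08 and 10.06 with miR-709, which overlapped (log2 fold change -0.03, limma adjusted p = 0.89). The E-box CACGTG, the sequence that MYC with its partner MAX binds, reads the same on both strands and was present in the promoters of 6 of the 33 matched genes, or 18.2%, against 8.1% of all promoters and 9.5% of those of genes on the arrays. It was present in 12.2% of promoters of genes called lower and 13.9% of those of genes called higher. It was not found in those of *Nop16*, *Polr1b* and *Nop10*. Examples with 12 bases on each side are shown to set these genes, all uncalled, beside the promoters above.
Rrn3, chr16:13780472-13780501, plus strand: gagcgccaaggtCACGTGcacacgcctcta
Rrn3, chr16:13780639-13780668, plus strand: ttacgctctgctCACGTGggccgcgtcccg
Nop2, chr6:125131811-125131840, plus strand: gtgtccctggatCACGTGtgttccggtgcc
Utp18, chr11:93885769-93885798, minus strand: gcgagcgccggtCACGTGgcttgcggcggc

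Disturbed ribosome production is known to stabilise p53, so its target genes were listed too. Of 20 listed, 17 were measured, and *Cdkn1a*, *Bax* and *Gdf15* were not. Of the 17, 2 passed the test as lower and 1 as higher, against 1.47% and 1.81% of all genes. Among all genes whose mean log2 signal reached 6 the shares were 3.0% and 3.76%. Without adjustment, 6 of the 17 had a limma p under 0.05, against 15% of all genes and 26.0% of the bright ones. The pro-apoptotic *Pmaip1* fell by 0.80 on the log2 scale and the death receptor *Tnfrsf10b* fell by 0.69 (limma adjusted p = 0.0082 and 6e-04). *Trp53inp1*, a stress protein, was higher by 0.82 (limma adjusted p = 7e-04). The median of the 17 was -0.06. Without miR-709 arrays C and D, *Pmaip1* had a limma adjusted p of 0.16, and with the methods' t-test its adjusted p was 0.13. The calls of *Tnfrsf10b* and *Trp53inp1* held in all 20 alternatives.

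The cultures had the markers of hepatocytes. *Alb* read 13.4 to 13.5 on every array, and 12 of the 14 hepatocyte markers measured had a mean log2 signal of at least 6. Of these markers *Cps1* (0.68), *Tat* (0.62) and *Hnf4a* (0.57) rose and none fell, against 1.81% of all genes called higher and 1.47% called lower. The mean signal of the 14 was 10.2 to 10.3 with Cel-239b and 10.4 to 10.5 with miR-709. Of 8 cholangiocyte markers measured, 1 passed as lower and 0 as higher, against 1.47% and 1.81% of all genes. This was *Krt19*, which fell by 1.23 (limma adjusted p = 0.038). Its signals were 9.50 to 9.71 in the controls, 8.97 and 8.73 on A and B, and 7.91 and 7.79 on C and D. That call was lost without any single array other than miR-709 array A, with limma adjusted p-values from 0.053 to 0.16. With the methods' t-test the adjusted p was 0.27 for *Krt19*, 0.16 for *Cps1* and 0.11 for *Tat*. *Cps1* also lost its limma call, at 0.052 to 0.074, without Cel-239b array B or D or miR-709 array B or C, and at 0.079 without miR-709 arrays C and D together. *Tat* had 0.067 with the fixed replicate block and 0.052 without arrays C and D, while the call of *Hnf4a* held in all 20 alternatives. The mean signal of the 8 was 6.09 to 6.14 with Cel-239b and 5.76 to 5.96 with miR-709. Their median log2 fold change was -0.19, with 6 values below 0 and 2 above, and 3 of the 8 reached a mean log2 signal of 6. Without adjustment, 4 of the 8 had a limma p under 0.05, as did 5 of the 14 hepatocyte markers. The share was 15% of all genes and 26.0% of the bright ones. Of 12 stellate, 10 endothelial and 12 Kupffer cell and leukocyte markers, 1, 0 and 1 reached a mean log2 signal of 6. None passed the test with limma, and 1, 1 and 0 had an unadjusted limma p under 0.05, against 15% of all genes. The mean signals of these lists stayed between 4.47 and 4.97 on every array. The part of these shifts in the values of the nucleolar genes was not tested.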

How the data were processed

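Total RNA of 7 hepatocyte cultures, 4 transfected with miR-709 and 3 with Cel-239b, was measured on Affymetrix mouse gene arrays. The authors deposited 1 log2 signal for each probe set and array, made per the labels with Partek and RMA, in versions not given in the sources used here. RMA brings arrays to 1 distribution, so a shift shared by most genes cannot be seen. Of 28853 probe sets, 21789 had 1 gene symbol, 1621 had several and 5443 had none here. The brightest probe set of each gene was kept, which left 19938 genes, with array medians from 5.36 to 5.385. Correlations between arrays were 0.9965 to 0.9979 for arrays of the same treatment and 0.9945 to 0.9961 for arrays of different ones. No arrays were identical.

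Treatments were compared with limma 3.58.1 in R 4.3.3 (lmFit and eBayes, 2-sided, Benjamini-Hochberg over all genes, adjusted p under 0.05, no block). Intervals are at 95%. The methods name a 1-way ANOVA, which for a pair of groups is called the methods' t-test. Precision is limited by the number of arrays: the median SE of a log2 fold change was 0.076. The procedure was tested on simulated data. The members, gene lists and motifs were chosen with earlier results of these data known, so counts over them are descriptions. Named are all members, with values on each array for *Nop16*, called members, the 2 uncalled members of largest change in each direction and the brightest of each role, then called genes of other lists, at most 4 per list, and *Myc*. Alternatives changed the test, probe sets, signal filter, normalization, weights, blocking or arrays. The arrays give no signal for ribosomal RNA precursors or protein that was used here.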

Additional observations from a re-analysis of the deposited data

Results flagged for a closer look

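In groups of 4 arrays, the gap of the lowest or highest array to its nearest was divided by the range of the group. An array was picked out where this ratio exceeded Dixon's 95% critical value. Chance picks about 1 in 20 groups, and 2 of the 41 genes had one here. The miR-709 array C was the lowest for *Nop16*, at a log2 signal of 7.89, which lay below the narrow spread of the other arrays. The miR-709 array A was the lowest for *Polr1c*, at 8.73, below the other arrays of that treatment. Outside the set, the p53 target *Pmaip1* was highest on miR-709 array A, at 6.92.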

How the results depend on the processing

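The counts of 1 lower and 0 higher among the 40 genes held in all 20 alternatives, and no recomputed fold change of these 40 changed its side of the threshold. Signs were less stable: 19 of the 41 genes kept theirs throughout. The median of the 40 ranged from -0.04 to 0.05, below 0 after further quantile normalization (-0.0015), cyclic loess (-0.011) and without miR-709 arrays C and D, an alternative chosen after seeing the data. *Nop16* ranged from -1.48 to -1.41 and *Polr1b* from -0.94 to -0.79. Over all genes, 293 were lower and 361 higher. The methods' t-test called 113 in each direction, and dropping C and D left 92 lower and 76 higher. A filter at a mean signal of at least 6 gave 366 lower and 555 higher. Leaving out each array in turn gave 181 to 244 lower and 180 to 294 higher. The smallest lower count came without Cel-239b array C, which also gave the fewest higher. Deviations of arrays with the same replicate letter correlated at 0.019, 0.017 and 0.046 for B, C and D. For arrays of different letters the values were -0.059 to 0.078. With so few arrays, this cannot show whether the letters mark pairs. With the letter as a fixed replicate block, where array A has no partner and drops out, 221 were lower and 180 higher, *Polr1b* had -0.9, and the median of the 40 was 0.05. As a random replicate block the counts were 294 and 365. The cause of these differences was not tested.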

Other observations

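*Higd2a*, a respiratory chain assembly gene, starts on the opposite strand from *Nop16*, and their promoter windows overlap. It read 10.60, 10.57 and 10.82 with Cel-239b and 10.91, 10.82, 10.56 and 10.60 with miR-709. The groups overlapped (log2 fold change 0.06, limma adjusted p = 0.84), so the lower signal of *Nop16* was not seen in this neighbour.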
